A study of Homo sapiens with 16 samples.

Results

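The comparison described here is the effect of PP242 on the mRNAs that MiaPaca-2 cells carried on polysomes. It rests on 8 of the 16 arrays of the series: 4 arrays of polysome-associated RNA from cells given 2.5 µM PP242 for 12 h and 4 from cells given the vehicle, DMSO, for the same time, matched by replicate number. MiaPaca-2 is an established human pancreatic cancer cell line. The polysome RNA was pooled from sucrose gradient fractions in which an mRNA carried more than 3 ribosomes, and the other 8 arrays hold cytosolic RNA of the same treatments. Each of 19777 genes was read from 1 probe set, the one with the strongest mean signal in the 16 arrays. All arrays come from 1 cell line, and the labels do not say whether the 4 replicates were separate cultures, so the p-values measure the spread between these samples, which may be technical.

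PP242 occupies the ATP site of mTOR, the kinase of the complexes mTORC1 and mTORC2. mTORC1 phosphorylates the 4E-BP proteins, which otherwise hold the cap-binding factor eIF4E away from mRNA caps, and it activates the S6 kinases, so its inhibition limits cap-dependent initiation and the number of ribosomes an mRNA carries. mTOR signalling also drives cell growth and the passage from G1 into S phase. The amount of an mRNA in a polysome pool depends both on how much of that mRNA the cell has and on how well it is loaded with ribosomes.

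The 8 arrays were closely alike. Within a treatment, array values correlated at 0.991 to 0.997, and array medians lay between 4.57 and 4.63 on the log2 scale. Values are normalized to the array, so every change below is relative to the other mRNAs of the polysome pool and a loss shared by all mRNAs cannot be seen. Different genes were read by different probes, so a signal is only a rough guide to the level of one gene beside another, and it is used here only to place genes in the signal range. In bulk RNA, fewer cells of a kind and less RNA per cell cannot be told apart. As to the label of the cells, the keratins KRT8 and KRT18 and vimentin (VIM) were high in vehicle (means of 12.86, 13.92 and 14.18). KRT19 read 10.80 and KRT7 read 6.29, whereas the epithelial adhesion genes CDH1 (3.20) and EPCAM (2.85) were near the bottom of the scale. Of these 7 markers 3 were higher after PP242 (KRT8, KRT18 and KRT19) and 0 lower. The 4 measured leukocyte markers lay between 2.91 and 5.42 in both treatments, and 0 of them, 0 of 5 endothelial markers and 0 of 4 markers of normal pancreas passed the test. Of 6 fibroblast markers 2, the collagens COL1A2 and COL3A1, were lower after PP242 (-0.85 and -1.01). In vehicle the 6 read 12.21 (COL1A2), 7.56 (COL3A1), 7.15 (COL1A1), 5.89 (PDGFRB), 5.13 (DCN) and 3.24 (LUM), and the part of other cells in the results was not tested.

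PP242 changed the polysome level of many genes, about as many downwards as upwards, and mostly by small amounts. By limma with array pairs as blocks, 2716 genes were lower (13.7% of those tested) and 2905 were higher (14.7%) at a Benjamini-Hochberg adjusted p under 0.05. The median called fall was -0.44 on the log2 scale, or 1.36-fold, and the median called rise was 0.46, or 1.38-fold, against a median of -0.005 over all genes. At least 2-fold changes numbered 240 falls and 220 rises, and at least 4-fold changes 16 falls and 7 rises. Of the 5621 called genes, 5389 moved the same way in all 4 pairs of arrays. The PP242 and vehicle arrays did not overlap for 3823 genes, which is 19.3% of all, and 3433 of these were called. Without the replicate block 3099 genes were called, of which 3098 were also called with it and 0 had the opposite sign.

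**Figure D1:**
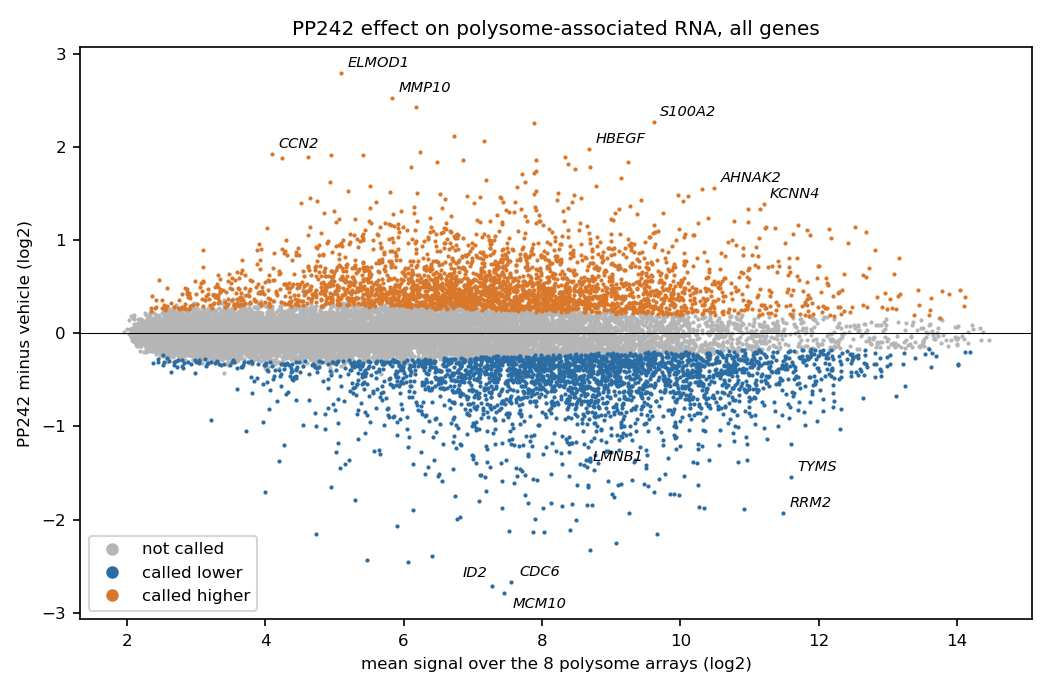
Each point is 1 of 19777 genes, with its mean log2 signal over the 8 polysome arrays on the x axis and the PP242 minus vehicle log2 change on the y axis. Blue points (2716) were called lower and orange points (2905) higher, and the falls lie farther to the right than the rises.

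Falls and rises came from different parts of the signal range. The median vehicle signal was 8.84 for genes called lower, 7.05 for genes called higher and 5.73 for all genes. With genes split into 5 equal bins by signal, 37.2% of the top bin were lower and 21.8% higher, whereas in the middle bin 7.31% were lower and 16.2% higher. Among genes above the median signal the shares were 25% and 23.4%. Gene groups of high signal are to be held against these shares. Groups that lie mostly in the top bin (signal from 8.37) are to be held against the shares of that bin. Of 2657 long non-coding RNAs measured, 225 (8.47%) were higher and 38 (1.43%) lower, and their median signal was low at 3.58. Protein-coding genes split evenly, with 16.1% of 16520 lower and 15.8% higher.

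The largest falls were in genes of DNA replication and its control. MCM10, which helps to fire the replicative helicase, read 8.5, 8.67, 9.14 and 9.1 on vehicle arrays 1 to 4 and 5.45, 5.77, 6.46 and 6.57 on PP242 arrays 1 to 4. It fell by 2.79 ± 0.10 on the log2 scale, or 6.92-fold (standard error of the limma fit, as in all values after ± below, n = 4 per group, adjusted p = 6.68e-11), and no PP242 array came near the vehicle arrays. CDC6, which loads the helicase onto origins, read 8.73, 8.85, 9.13 and 8.87 in vehicle and 5.75, 6.09, 6.49 and 6.55 after PP242. The licensing inhibitor geminin (GMNN) read 10.62, 10.69, 10.84 and 10.92 in vehicle and 8.85, 9.01, 9.22 and 9.1 after PP242. Thus the factor that loads the helicase and the protein that blocks reloading were both lower on polysomes, CDC6 by -2.67 ± 0.10 and GMNN by -1.72 ± 0.07. Of the helicase itself, CDC45 went from 8.74, 8.9, 9.07 and 9.03 to 6.54, 6.63, 6.87 and 7.15, a change of -2.14 ± 0.09. GINS2 changed by -2.33 ± 0.08, although only 2 of its 3 probe sets had that sign.

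Genes that act at the fork and supply it were lower to a like degree. FEN1, the nuclease that trims Okazaki fragments, read 10.33, 10.65, 11.07 and 10.89 in vehicle and 8.25, 8.41, 8.77 and 8.87 after PP242. The small subunit of ribonucleotide reductase, RRM2, read 12.31, 12.4, 12.57 and 12.53 in vehicle and 10.4, 10.38, 10.57 and 10.72 after PP242. Both sets of arrays are apart by more than the spread within them: FEN1 fell by 2.16 ± 0.07 and RRM2 fell by 1.94 ± 0.06, the latter with the smallest p of all falls (adjusted p = 6.36e-11 by limma). The sliding clamp PCNA (-1.89 ± 0.07), its loader subunit RFC5 (-1.84 ± 0.08), the polymerase subunit POLE2 (-2.13 ± 0.10) and the thymidylate synthase TYMS (-1.55 ± 0.07, with 2 of 3 probe sets of that sign) also fell. So did EXO1 (-2.46 ± 0.11), an exonuclease of mismatch repair and recombination.

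Regulators of the cell cycle stood among the largest falls as well. CCNE2, a cyclin of S-phase entry, read 5.6, 5.54, 6.01 and 6.08 in vehicle and 3.29, 3.48, 3.95 and 3.89 after PP242, a change of -2.15 ± 0.10. DTL, the substrate receptor of a cullin ligase that acts in S phase, read 8.79, 9.05, 9.35 and 9.17 in vehicle and 6.4, 6.69, 7.25 and 7.48 after PP242, a change of -2.13 ± 0.11. In both genes arrays 1 and 2 were lower than arrays 3 and 4 after PP242, and the groups did not overlap. CDK1, the mitotic kinase (-2.25 ± 0.09), E2F8, a repressor among the E2F factors (-2.43 ± 0.12), ZWINT, a kinetochore protein (-1.71 ± 0.07), ZNF367, a zinc finger protein (-2.39 ± 0.13), and TCF19 (-2.07 ± 0.11) fell too. ID2 and ID3, which bind and block helix-loop-helix transcription factors, were among the same 16 genes. ID2 read 8.4, 8.34, 8.64 and 9.16 in vehicle and 5.94, 6.31, 5.98 and 5.47 after PP242 (-2.71 ± 0.18), and ID3 went from 9.34, 9.27, 9.49 and 9.74 to 7.65, 7.44, 6.97 and 7.31 (-2.12 ± 0.12). In these genes, unlike CCNE2 and DTL, PP242 arrays 3 and 4 were not both above 1 and 2.

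**Figure D2:**
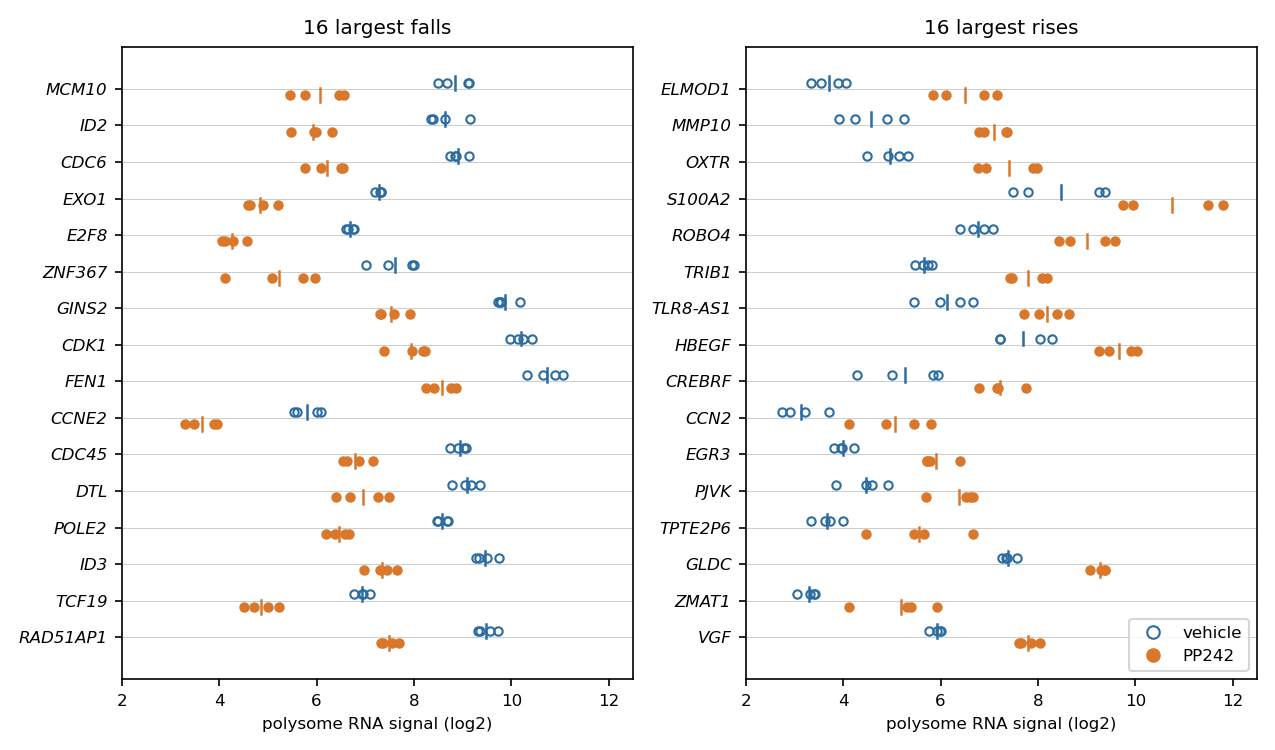
Log2 polysome signal of the 16 largest falls (left) and the 16 largest rises (right), with 4 vehicle arrays (open circles) and 4 PP242 arrays (filled circles) per gene and a bar at each mean. In every gene shown the treatments do not overlap, as in MCM10 (8.5 to 9.14 against 5.45 to 6.57) and GLDC (7.27 to 7.57 against 9.07 to 9.38).

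Several of the leading falls share a promoter word. RefSeq promoters (GRCh38.p14, 250 bases before to 50 after the start of the gene) were matched for 14 of the 16 largest falls, and 7 of these hold an E2F site, searched as TTTCCCGC, TTTGGCGC, TTTCGCGC or TTTGCCGC on either strand. Of the 16 largest rises 11 had a promoter, and 0 hold the site. The first 5 such promoters in order of the fall are printed from 100 bases before to 30 after the start, 5′ to 3′ along the strand of the gene, with the match in capitals; a match on the other strand reads as its reverse complement. The genes lie on the plus strand for CDC6 (chr17:40287779-40287908), EXO1 (chr1:241848104-241848233) and CDK1 (chr10:60778231-60778360), and on the minus strand for ZNF367 (chr9:96418341-96418470) and GINS2 (chr16:85688925-85689054).
CDC6: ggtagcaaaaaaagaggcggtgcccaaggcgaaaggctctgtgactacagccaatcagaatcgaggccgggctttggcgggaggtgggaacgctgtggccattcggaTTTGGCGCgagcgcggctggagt
EXO1: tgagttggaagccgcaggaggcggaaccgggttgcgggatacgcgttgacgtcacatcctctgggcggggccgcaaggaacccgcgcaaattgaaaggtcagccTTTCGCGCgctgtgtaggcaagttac
ZNF367: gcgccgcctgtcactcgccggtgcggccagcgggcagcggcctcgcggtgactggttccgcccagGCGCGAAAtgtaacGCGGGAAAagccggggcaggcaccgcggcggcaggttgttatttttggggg
GINS2: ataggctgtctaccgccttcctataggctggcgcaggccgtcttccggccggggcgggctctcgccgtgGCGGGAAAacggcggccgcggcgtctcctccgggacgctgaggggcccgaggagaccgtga
CDK1: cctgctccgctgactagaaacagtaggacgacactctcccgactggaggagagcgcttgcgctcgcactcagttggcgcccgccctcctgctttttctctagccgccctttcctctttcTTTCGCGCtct
Counted from the start of the gene, the matches begin at base 8 in CDC6, 5 in EXO1, 20 in CDK1 and -31 in GINS2, and ZNF367 holds a pair, at -35 and -21. The CDK1 promoter also holds a CHR element (TTTGAA, the word of many mitotic genes) at -161, outside the printed stretch. A match describes the letters of a promoter and is not a measured binding site.

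Over all genes, the words of cell-cycle promoters were most frequent where the fall was largest. The E2F words were in 18.5% of 200 promoters of genes lower by at least 2-fold, in 7.84% of 2308 called lower, in 3.64% of 10752 not called and in 4.26% of 2322 called higher, against 4.36% of all 15382 measured genes with a promoter and 3.33% of all 27305 RefSeq promoters. The CHR word was in 31% of promoters of the 2-fold falls, in 13.6% of all called lower and in 7.67% of all called higher. It was in 11.9% of all measured genes and in 15.4% of all RefSeq promoters. The share in all called falls lay between these backgrounds, so the excess was seen in the 2-fold falls only. CHR together with a CCAAT box (CCAAT), the common layout of mitotic genes, was in 19.5% of the 2-fold falls and 4.82% of all measured genes. The CCAAT box alone was in 56.5% and 36.1%. The 2-fold falls had a median promoter GC content of 63.3%, close to the 63% of all measured genes.

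The word of growth-regulated ribosomal mRNAs differed little between the sets. A start with C followed by 4 pyrimidines, as in 5′ terminal oligopyrimidine mRNAs, was in 4.5% of the 2-fold falls, 5.03% of all called lower, 4.65% of all called higher, 5.85% of the 2-fold rises, 4.36% of genes not called and 4.51% of all measured genes. RefSeq start sites can differ from those used in these cells, which was not tested. The AP-1 word (TGAGTCA) was in 7.60% of 171 promoters of genes higher by at least 2-fold (13 promoters). It was in 0.5% of the 2-fold falls (1 promoter), 3.74% of all measured genes and 4.92% of all RefSeq promoters. In all called higher its share was 4.09%, beside 4.08% of genes not called and 1.78% of all called lower. An excess among rises was thus seen in the 2-fold rises only. The cAMP response word (TGACGTCA) was in 7% of the 2-fold falls, 2.92% of the 2-fold rises and 2.67% of all. A TATA box (TATAAA) was in 5.5%, 11.1% and 8.76%, an E-box (CACGTG) in 8%, 9.36% and 8.9%, and a GC box (GGGCGG) in 72.5%, 63.2% and 58.9%. In all called lower, all called higher and genes not called, the TATA box was in 5.11%, 5.43% and 10.3%. The E-box was there in 9.88%, 11.5% and 8.12%, and the GC box in 68.8%, 72% and 53.9%. Thus the GC box was more frequent in called genes of both directions. No word searched contains another, and the words may overlap in a promoter.

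**Figure D3:**
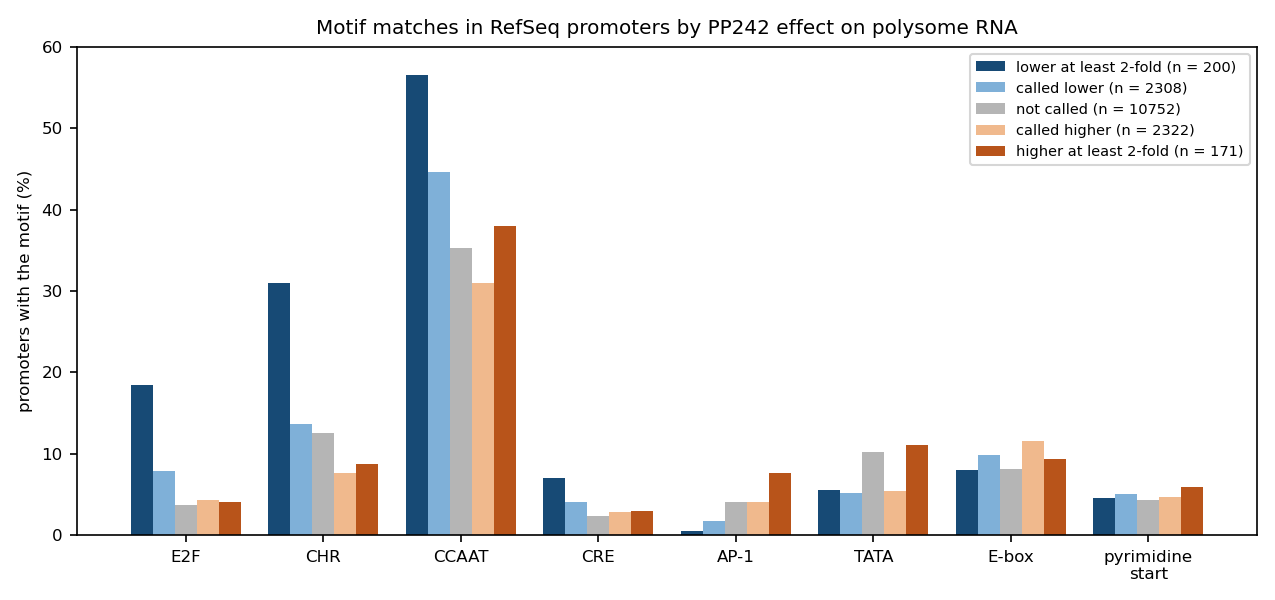
Percent of RefSeq promoters (y axis) that hold each word (x axis), for genes lower by at least 2-fold, all called lower, not called, all called higher and higher by at least 2-fold, with the number of promoters in the legend. The 2-fold sets are part of the called sets, and E2F stands at 18.5% in the 2-fold falls and at 3.64% in genes not called.

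The structures that hold and divide chromosomes were lower beyond the replication genes. Of 21 condensin and cohesin genes 16 (76.2%) fell, 1 rose and 4 did not pass, with a median of -0.41 (12 fell without the replicate block). Over all genes 13.7% were lower, above the median signal 25% and in the top signal bin 37.2%. The condensin subunit NCAPH read 8.52, 8.76, 8.52 and 8.66 in vehicle and 6.84, 6.95, 6.78 and 6.96 after PP242. It fell by 1.73 ± 0.08, and every PP242 array was far below every vehicle array. NCAPG2 (-1.57 ± 0.09), SMC2 (-1.38 ± 0.09) and CDCA5, which protects cohesion (-1.46 ± 0.08), fell as well. The 21 genes had a median of -1.05 in cytosolic RNA.

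Of 24 centriole and centrosome genes 18 fell and 1 rose, with a median of -0.44 (13 fell without the block). PLK4, the kinase that starts centriole duplication, went from 6.28, 6.34, 6.23 and 6.24 to 4.92, 4.9, 5.32 and 4.93, a change of -1.25 ± 0.11. Its partner STIL (-1.10 ± 0.08) and gamma-tubulin TUBG1 (-0.86 ± 0.07) fell, and 12 of 22 tubulins and their folding factors were lower, led by TUBB2B (-0.99 ± 0.09). The chaperonin that folds tubulin and actin moved the same way: 9 of 12 CCT and prefoldin genes fell and 0 rose (median -0.29; 5 fell without the block), with CCT5 at -0.65 ± 0.07. Of 38 cullin ligase and APC/C genes 21 fell and 3 rose. They include FBXO5, the APC/C inhibitor (-1.97 ± 0.13), cyclin F (CCNF, -1.29 ± 0.08) and CKS2 (-1.13 ± 0.07), beside CUL9, which rose (0.93). The shares of falls were 75% for centriole, 54.5% for tubulin, 75% for CCT and prefoldin and 55.3% for cullin and APC/C genes. Above the median signal 25% of genes were lower, and in the top signal bin 37.2%.

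Genes of the nuclear envelope and pore formed another group of falls. Of 31 nuclear pore genes 24 (77.4%) were lower and 0 higher, with a median of -0.39. Among all genes above the median signal 25% were lower, and in the top signal bin 37.2%. The count of lower pore genes was 13 without the block and 21 to 22 with a replicate left out. NUP85, a scaffold nucleoporin, read 10.68, 10.94, 11 and 10.92 in vehicle and 9.79, 9.72, 9.93 and 9.91 after PP242 (-1.05 ± 0.07), with no overlap. NUP35 (-0.99 ± 0.08), NUP107 (-0.86 ± 0.08) and NUP62 (-0.76 ± 0.08) followed. Of 18 lamina and envelope genes 7 fell and 1 rose. Their 38.9% lower is near the 37.2% of the top signal bin. LMNB1, the B-type lamin, read 9.48, 9.5, 9.3 and 9.18 in vehicle and 8.15, 8.4, 7.49 and 7.67 after PP242 (-1.44 ± 0.10), TMPO fell by 1.42 ± 0.07 and LMNB2 by -1.01 ± 0.07. Transport factors were mixed: 11 of 28 fell and 5 rose (7 and 0 without the block), with the RAN regulators RANBP1 (-1.0 ± 0.07) and RCC1 (-0.97 ± 0.09) lowest. The 39.3% of transport factors that fell is also near the share of the top signal bin.

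Most mRNAs for the splicing machinery were lower. Of 39 core spliceosome genes 31 (79.5%) fell and 0 rose, with a median of -0.38 (22 fell without the block). Of 31 SR and hnRNP genes 23 (74.2%) fell and 1 rose, with a median of -0.45 (18 fell without the block). All genes of both lists lie above the median signal, where 25% of genes were lower, and in the top signal bin 37.2% were. SRSF7, a splicing activator of the SR class, read 11.97, 12.23, 12.32 and 12.26 in vehicle and 10.96, 11.12, 10.97 and 10.99 after PP242. It fell by 1.19 ± 0.07, and the groups were apart by more than their width. SNRNP40 (-0.88 ± 0.09), LSM2 (-0.84 ± 0.08) and PRPF4 (-0.76 ± 0.08) led the core genes. SRSF4 (-0.95 ± 0.07) and TRA2A (-0.92 ± 0.07) depended on the probe set: only 2 of 5 probe sets of each had that sign, and with the mean of the probe sets the change was -0.19 (adjusted p = 0.179 by limma) for SRSF4 and -0.09 (adjusted p = 0.451) for TRA2A. HNRNPA1 was the 1 member that rose (0.23).

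Transcription and RNA decay complexes were mixed. Of 12 RNA polymerase II subunits 8 fell and 0 rose (4 and 0 without the block), with POLR2C at -0.56 ± 0.07. Of 27 subunits and factors of polymerases I and III 7 fell and 3 rose (4 and 1 without the block), with POLR3K at -1.41 ± 0.09. All 27 were above the median signal, and their 25.9% lower is close to the 25% of all such genes. Of 30 Mediator genes 11 fell and 3 rose (6 and 2 without the block, 6 and 3 with the mean of probe sets), from MED21 (-0.96 ± 0.10) to the kinase CDK19 (0.96 ± 0.10). Of 45 mRNA decay genes 16 fell and 8 rose (10 and 2 without the block). The falls were led by the exosome subunits EXOSC8 (-1.19 ± 0.08) and EXOSC3 (-0.89 ± 0.09), whereas the antiproliferative deadenylation factor BTG1 rose (1.08). The shares of falls were 66.7% for polymerase II, 36.7% for Mediator and 35.6% for mRNA decay genes. The Mediator and decay shares lie between the 25% of genes above the median signal and the 37.2% of the top signal bin.

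Mitochondrial import and the tricarboxylic acid cycle fell by small steps. Of 28 import genes 17 fell and 2 rose (median -0.28; 9 fell without the block). TOMM40, the channel of the outer membrane, went from 8.84, 8.84, 9.42 and 9.17 to 8.33, 8.09, 8.43 and 8.54 (-0.72 ± 0.09), next to -0.05 in cytosolic RNA. The test of that difference gave an adjusted p of 0.26 by limma, so the polysome and cytosolic effects were not shown to differ. Of 19 cycle genes 12 fell and 0 rose (median -0.33; 6 fell without the block), with the succinyl-CoA ligase subunit SUCLA2 at -0.85 ± 0.08 and citrate synthase (CS) at -0.45 ± 0.07. The falls were 60.7% of import and 63.2% of cycle genes. Vesicle coats (10 of 33 lower, 4 higher) and peroxisome genes (8 of 23 lower, 5 higher) moved both ways. Their shares of falls, 30.3% and 34.8%, lie between the 25% of genes above the median signal and the 37.2% of the top signal bin. Their shares of rises, 12.1% and 21.7%, are below the 23.4% of genes above the median signal. Without the block the counts were 6 and 2 for coats and 3 and 3 for peroxisome genes. SEC23A, a COPII coat subunit, changed by -0.74 ± 0.08 (adjusted p = 0.0723 by limma over all 16 arrays with the block, where it was not called), and the peroxisomal import factor PEX10 by 0.70 ± 0.09. Of 26 ESCRT genes 3 fell and 4 rose (1 and 1 without the block). These shares of 11.5% and 15.4% are below the 25% and 23.4% of genes above the median signal, where 25 of the 26 lie. Among them was HGS, which sorts receptors to lysosomes, at 0.90 ± 0.08.

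**Figure D4:**
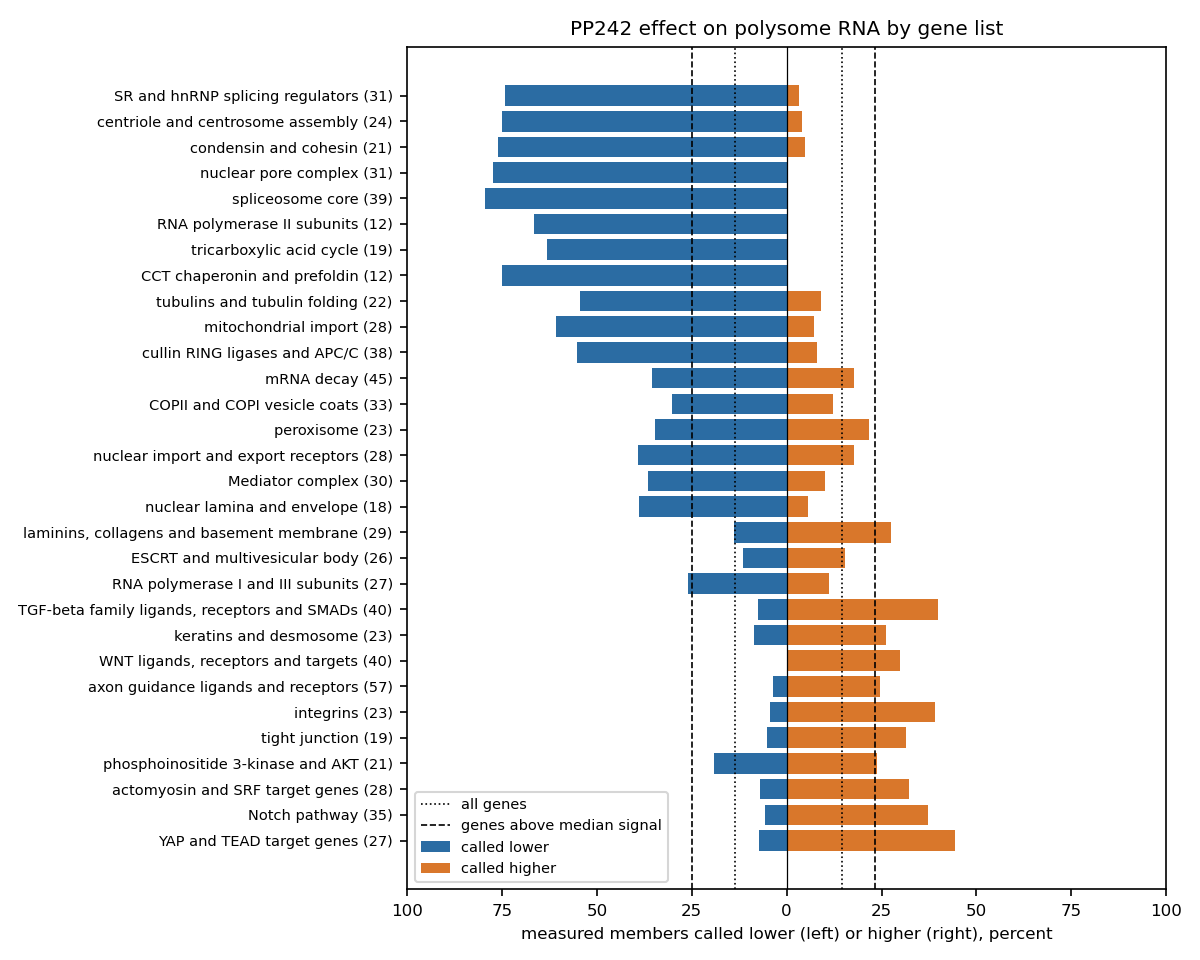
Percent of the measured members of each of 30 gene lists (number in brackets) that were called lower (bars to the left) or higher (bars to the right), sorted by median change. Dotted lines mark all genes (13.7% and 14.7%) and dashed lines genes above the median signal (25% and 23.4%); 31 of 39 core spliceosome genes were lower, and 12 of 27 YAP and TEAD targets were higher.

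The largest rises were a mixed set of signalling, secreted and surface genes. ELMOD1, a GTPase-activating protein, read 3.33, 3.54, 4.06 and 3.88 in vehicle and 5.85, 6.11, 7.15 and 6.89 after PP242. It rose by 2.80 ± 0.12, or 6.95-fold, from a vehicle level low on the scale, so the size is not exact. S100A2, a calcium-binding protein, read 9.37, 9.25, 7.49 and 7.8 in vehicle and 11.8, 11.5, 9.74 and 9.95 after PP242. Numbers 1 and 2 were higher than 3 and 4 in both treatments, and each pair moved by a like amount (2.27 ± 0.07, adjusted p = 6.36e-11 by limma). HBEGF, a ligand of the EGF receptor, read 7.21, 7.22, 8.05 and 8.28 in vehicle and 9.26, 9.46, 10.04 and 9.92 after PP242. It rose by 1.98 ± 0.09, with numbers 3 and 4 above 1 and 2 in both treatments, and 3 of its 4 probe sets had that sign. Among the 11 promoters of the largest rises, 1 holds an AP-1 word, that of S100A2 (chr1:153565815-153565944, minus strand). A cAMP response word is in 1 of them, that of VGF (chr7:101165540-101165669, minus strand). Among the 14 promoters of the largest falls, 3 hold the cAMP response word (MCM10, EXO1 and DTL) and 0 the AP-1 word, so the former is not particular to the rises. The S100A2 and VGF promoters are printed with the word in capitals, beginning at -52 and -79.
S100A2: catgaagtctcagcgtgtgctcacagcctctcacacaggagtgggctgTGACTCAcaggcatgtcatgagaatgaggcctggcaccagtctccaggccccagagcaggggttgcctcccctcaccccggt
VGF: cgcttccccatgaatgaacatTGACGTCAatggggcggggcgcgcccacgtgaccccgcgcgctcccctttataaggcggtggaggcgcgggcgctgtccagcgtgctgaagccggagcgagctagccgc
VGF, a secreted neuropeptide precursor known as a target of cAMP signalling, read 5.93, 6.01, 5.76 and 5.99 in vehicle and 7.65, 8.04, 7.86 and 7.6 after PP242. It rose by 1.86 ± 0.10.

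The remaining rises named by size or by p span receptors, channels and enzymes. MMP10, a matrix metalloproteinase (2.52 ± 0.12), the oxytocin receptor OXTR (2.43 ± 0.12), the guidance receptor ROBO4 (2.25 ± 0.11), the pseudokinase TRIB1 (2.12 ± 0.14; 2 of 3 probe sets) and the immediate-early factor EGR3 (1.92 ± 0.15) rose. EGR3 read 3.98, 3.95, 3.8 and 4.21 in vehicle and 5.71, 5.79, 6.39 and 5.72 after PP242, with array 3 apart from the rest. KCNN4, a calcium-activated potassium channel, had one of the tightest rises, from 10.46, 10.57, 10.56 and 10.45 to 11.85, 11.83, 12.01 and 11.9 (1.39 ± 0.06). The calcium release channel ITPR3 rose by 1.48 ± 0.07, with 2 of its 4 probe sets of that sign. CDCP1, a surface substrate of SRC kinases (1.76 ± 0.08), AHNAK2 (1.56 ± 0.08), PSD3, an exchange factor for ARF6 (1.48 ± 0.07) and GLDC, the glycine decarboxylase (1.89 ± 0.08), were also called.

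Genes tied to the cytoskeleton, adhesion and the YAP pathway rose in part. Of 27 YAP and TEAD target genes 12 were higher and 2 lower (median 0.21; 9 and 1 without the block), against 14.7% higher over all genes and 23.4% above the median signal. CCN2, the connective tissue growth factor, read 2.74, 3.7, 2.9 and 3.22 in vehicle and 4.12, 4.88, 5.46 and 5.81 after PP242 (1.93 ± 0.20), and CCN1 went from 8.45, 8.62, 9.55 and 9.8 to 9.87, 10.08, 10.86 and 10.8 (1.30 ± 0.08). CCN2 was near the bottom of the scale in vehicle, and its PP242 arrays spread widely but did not overlap with vehicle. The receptor kinase AXL (1.05 ± 0.07) and MYOF (0.81 ± 0.06) rose too. Of 28 actomyosin and SRF target genes 9 rose and 2 fell (5 and 1 without the block, 14 and 2 under cyclic loess), led by FHL2 (0.81 ± 0.07), whereas TAGLN2 fell (-0.62 ± 0.07).

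Of 23 integrins 9 rose and 1 fell (5 rose without the block). ITGB8, which activates latent TGF-beta, read 5.15, 4.92, 5.09 and 5.69 in vehicle and 6.64, 6.7, 7.29 and 7.39 after PP242 (1.79 ± 0.12). ITGB4 (1.36 ± 0.08) and ITGA6 (0.92 ± 0.10), the partners of the hemidesmosome receptor, and ITGA3 (1.32 ± 0.10) rose as well. Their ligands were mixed: of 29 laminin, collagen and basement membrane genes 8 rose and 4 fell (2 and 2 without the block), with LAMC1 at 0.81 ± 0.07 and COL3A1 at -1.01 ± 0.09 (3 of 5 probe sets). Among 23 keratin and desmosome genes 6 rose and 2 fell (5 and 1 without the block). KRT15 read 9.01, 9.22, 7.56 and 7.49 in vehicle and 10.54, 10.49, 10.41 and 9.19 after PP242 (1.84 ± 0.17), so the groups overlapped while each pair rose. KRT19 rose by 1.13 ± 0.07 and KRT80 fell by 1.24 ± 0.09. Of 19 tight junction genes 6 rose, and 0 of them passed without the block, with CLDN1 at 0.86 ± 0.10. The shares of rises were 39.1% for integrins, 31.6% for tight junction, 27.6% for laminin and collagen and 26.1% for keratin and desmosome genes. Over all genes 14.7% rose, and 23.4% above the median signal, so the laminin and keratin shares are near the latter.

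Among receptors and ligands of developmental pathways more genes were called higher than lower, which also holds for all genes of middle signal (16.2% and 7.31%). Their shares of rises were 40% for TGF-beta, 37.1% for Notch, 30% for WNT and 24.6% for axon guidance, against 14.7% over all genes and 23.4% above the median signal, so the last is near the background. Of 40 genes of the TGF-beta family 16 rose and 3 fell (12 and 3 without the block), although their median was 0.01. They include NOG, an extracellular BMP antagonist, which read 7.7, 7.89, 7.62 and 7.98 in vehicle and 9.35, 9.73, 9.62 and 9.64 after PP242 (1.79 ± 0.08). TGFB3 (1.09 ± 0.10, 1 of 2 probe sets) and the receptors TGFBR1 (1.00 ± 0.09, 2 of 3 probe sets) and ACVR2B (0.91 ± 0.09) rose. In cytosolic RNA TGFBR1 changed by -0.115 ± 0.28, and the test of the difference between pools gave an adjusted p of 0.281 by limma. The activin chain INHBE fell (-1.37). Of 40 WNT genes 12 rose and 0 fell (7 without the block), with the receptors FZD7 (0.90 ± 0.09) and FZD4 (0.88 ± 0.08) and the antagonist DKK1 (0.72 ± 0.08) among them. Of 35 Notch genes 13 rose and 2 fell (7 and 1 without the block), with the ligand DLL1 (1.17 ± 0.11) and NOTCH2 (0.72 ± 0.07). Of 57 axon guidance genes 14 rose and 2 fell (11 and 1 without the block), among them PLXNA1 (1.42 ± 0.08) and EPHA2 (0.74 ± 0.07).

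Of 21 phosphoinositide 3-kinase and AKT genes 5 rose and 4 fell (2 and 3 without the block), shares near those of all genes above the median signal. The regulatory subunit PIK3R3 changed by -1.20 ± 0.09 and the kinase SGK1, a relative of AKT, by 0.48 ± 0.07.

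Gene families grouped only by the letters of their symbols were a second grouping, which in part repeats the lists. NUP, LSM, EXOSC and ITGB share members with lists above, such as NUP85, LSM2, EXOSC8 and ITGB4, so they are not separate evidence. Among 239 such families with at least 10 measured genes, the largest shares of falls were in MRPS (21 of 27) and MRPL (37 of 50), the mitochondrial ribosomal proteins, NUP (19 of 26), the proteasome families PSMB (8 of 11) and PSMD (10 of 15), LSM (9 of 13), MCM (8 of 12) and EXOSC (6 of 10, as in SRSF). The MCM family had a median of -1.23, with MCM4 at -1.93 ± 0.08 and MCM3 at -1.72 ± 0.08, while the other 7 had medians between -0.49 and -0.31. The MRPS median was -0.31 on polysomes and -0.06 in cytosolic RNA, and the PSMB median was -0.41 and -0.12. The PSMD median was -0.34 and -0.12, that of EXOSC -0.49 and -0.26 and that of MRPL -0.325 and -0.20. NUP (-0.38 and -0.42), LSM (-0.45 and -0.42) and MCM (-1.23 and -1.18) had like medians in both pools. The differences between pools were not tested by family. The largest shares of rises were in MAN (5 of 10, mannosidases and the long non-coding RNA MAN1B1-DT) and ZFP (10 of 21). ITGB and the transporters ABCA (6 of 13 each) came next. The lysine demethylases KDM (8 of 19), the transporters ABCC (5 of 12), and CHD and ERCC (4 of 10 each, as in FBXW and OSBPL) followed. The medians of these 8 families ran from 0.10 to 0.27. Over all genes 13.7% were lower and 14.7% higher, and above the median signal 25% and 23.4%. In the top signal bin 37.2% were lower and 21.8% higher. The named families are the extremes of 239 ranked on these same shares, and no family was tested as a set. ERCC1, a subunit of a DNA repair nuclease, stood out in its family: it read 10.92, 10.72, 10.09 and 10.23 in vehicle and 12.06, 11.94, 11.5 and 11.8 after PP242 (1.33 ± 0.07). A family also takes in antisense and unrelated genes that share its letters, such as MCM3AP-AS1 and ITGB3BP.

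The leading genes moved in the same direction in cytosolic RNA. Genes called lower on polysomes had a cytosolic median of -0.36 and those called higher a median of 0.40. MCM10 changed by -2.77 ± 0.13 in the cytosol, ID2 by -2.96 ± 0.20 and GLDC by 1.83 ± 0.11. For some rises the estimate was larger on polysomes: CREBRF, a regulator of the CREB3 factors, rose by 1.95 ± 0.18 there and changed by 0.92 in the cytosol, ZMAT1 by 1.89 and 1.01, and PSD3 by 1.48 and 0.73. CREBRF read 5.84, 5.95, 4.29 and 4.99 in vehicle and 7.15, 7.75, 7.18 and 6.79 after PP242. PCNA, in contrast, changed by -1.89 on polysomes and by -2.47 in the cytosol. Tested as the difference of the 2 effects over 16 arrays with the replicate block, 0 genes (0%) passed limma at an adjusted p under 0.05, 2942 had an unadjusted p under 0.05, and the adjusted p was 0.286 for CREBRF and PCNA, 0.292 for ZMAT1 and 0.258 for PSD3. The cytosolic PP242 arrays had the widest spread, with a median gene SD of 0.245 against 0.122 to 0.159 in the other groups. An alternative chosen after seeing the data, the polysome minus cytosolic value of each treatment and number, gave 722 genes with the replicate block (566 higher) and 0 without it.

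**Figure D5:**
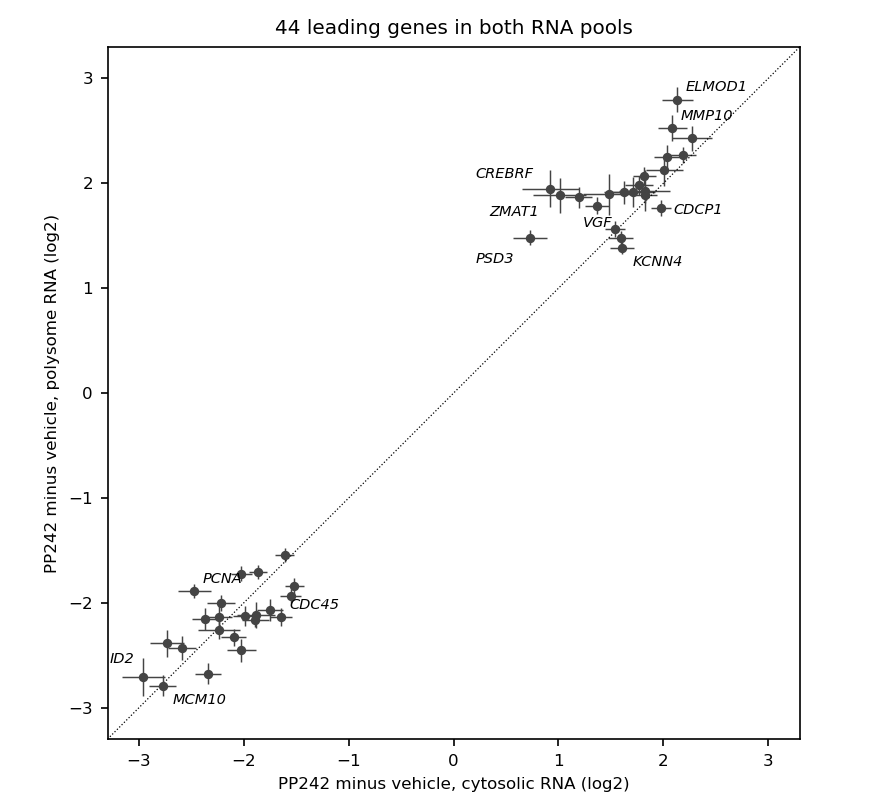
PP242 minus vehicle log2 change in cytosolic RNA (x axis) and in polysome RNA (y axis) for the 44 genes named by size or by p, with bars of 1 standard error and the dotted line of equal change. All 44 lie in the same direction in both pools; PSD3 (0.73 and 1.48) and CREBRF (0.92 and 1.95) lie above the line, and PCNA (-2.47 and -1.89) too.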

How the data were processed

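RNA of 4 groups of 4 samples was measured on Affymetrix 3′ expression arrays. The deposited values are log2 signals that the authors summarized with RMA (version not given), according to the submitters' processing notes; they run from 1.65 to 14.61, and the array medians of 4.57 to 4.63 (polysome) and 5 to 5.05 (cytosolic) differ between the RNA pools, which look scaled apart. Depth does not apply to arrays, and their number limits the precision. Of 54613 probe sets 41091 list 1 gene in GEO's 2016 platform table, 1801 list several and 11721 are not in it. For 10523 genes with more than 1 probe set the strongest was used, and 19735 of 19777 symbols matched RefSeq. Columns of values left unused number 0.

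PP242 was compared with vehicle on the 8 polysome arrays with limma 3.58.1 in R 4.3.3 (lmFit with replicate number as a block, eBayes with an intensity trend, two-sided, Benjamini-Hochberg over all genes, called under 0.05). The difference from the cytosolic effect used all 16 arrays. The numbers pair the samples: deviations from the group mean correlated at 0.418 to 0.51 between arrays of the same number, and each array matched its own number best; numbers 1 and 2, and 3 and 4, also correlated (0.268 to 0.339). On simulated data with 50 genes planted per size, the polysome test recovered 50%, 96%, 100% and 100% at log2 0.5, 1, 1.5 and 2, with 9 false calls. In the data 5621 of 19777 genes were called, a far larger share than was planted. The cutoff depends on that share, so these rates do not carry over to the data.

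The members, gene lists, words and families were chosen with earlier results of these data known. Genes were named if called with the same sign in 4 pairs: the 16 largest changes and, outside these, the 6 smallest p each way, up to 4 per list by p, and up to 3 for each of 8 families each way with the largest share called; other list members are named where a count needed them. Some genes and 1 list are not reported here. Promoters were searched with Python 3.11.15 and pandas 2.3.3 on both strands; figures used matplotlib 3.10.9. Alternatives were scaling, signal filter, probe set choice, variance trend, array weights, the block, the arrays fitted and replicates left out.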

Additional observations from a re-analysis of the deposited data

Results flagged for a closer look

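Of 404 groups of 4 arrays (202 named genes in both treatments), 19 had 1 array whose gap to the nearest of the others was, as a share of the whole range of the group, above Dixon's critical value for 4 values. Chance marks about 1 in 20 groups. For high PP242 arrays that stood apart, ABCC2 on array 3 read 7.84 (others 7.36 to 7.43), EGR3 on array 3 read 6.39 (others 5.71 to 5.79) and GRPEL1 on array 4 read 9.39 (others 8.96 to 9.02). PLK4 on array 3 read 5.32 (others 4.9 to 4.93), PSMB5 on array 4 read 11.26 (others 11.05 to 11.08) and PSMD11 on array 4 read 10.47 (others 10.21 to 10.24). SEMA3A on array 2 read 11.65 (others 11.23 to 11.25). For low PP242 arrays that stood apart, HSPE1 on array 3 read 10.43 (others 10.91 to 10.99), KRT15 on array 4 read 9.19 (others 10.41 to 10.54) and PJVK on array 4 read 5.69 (others 6.53 to 6.67). POLR2C on array 3 read 9.34 (others 9.6 to 9.65) and STAM on array 1 read 6.43 (others 6.77 to 6.8). For high vehicle arrays that stood apart, CHD5 on array 3 read 7.17 (others 6.76 to 6.79), GINS2 on array 4 read 10.17 (others 9.72 to 9.79) and TRA2B on array 2 read 11.58 (others 11.42 to 11.44). For low vehicle arrays that stood apart, EXO1 on array 1 read 7.19 (others 7.31 to 7.33), PSMD11 on array 1 read 10.83 (others 10.94 to 10.96) and SUCLG1 on array 4 read 11.48 (others 11.53 to 11.54). WNT2B on array 3 read 5.0 (others 5.61 to 5.64). EGR3, GINS2 and KRT15 were called without the replicate block too, and in each gene all 4 pairs moved the same way. No cause was tested.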

How the results depend on the processing

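The count of 5621 called genes (2905 higher, 2716 lower) kept within 1.5 times under quantile normalization, cyclic loess, the filter on signal, the mean of probe sets, no variance trend, array weights and all 16 arrays with the replicate block (4013 to 5755). It was 3099 without the replicate block (1551 higher, 1548 lower), 2641 with all 16 arrays and no replicate block (1346 and 1295), 2908 with replicates 1 and 2 only (1340 and 1568) and 2344 with replicates 3 and 4 only (1136 and 1208); the last 2 use fewer arrays, and the cause was not tested for the others. Leaving out 1 replicate number gave 4671 to 5064 genes (2347 to 2650 higher, 2204 to 2490 lower). Of the 202 named genes 0 changed sign; 16 lost their call without the block, 13 with the mean of probe sets, 14 with replicates 1 and 2 only, 24 with 3 and 4 only, 23 with all 16 arrays and no block, 5 with all 16 arrays and the block (ITGB1, KPNA2, PATJ, SEC23A and STAM) and 1 without replicate 1 (VPS36, adjusted p = 0.0583 by limma). Of 32 list counts of at least 5 genes, 21 moved by over 1.5 times without the block, 25 with all 16 arrays and no block, 10 with all 16 arrays and the block, 17 with replicates 1 and 2 only, 24 with 3 and 4 only and 6 with the mean of probe sets. Leaving out replicate 1 moved the rises of transport factors (5 to 1), mRNA decay (8 to 5), tight junction (6 to 3) and phosphoinositide 3-kinase genes (5 to 3); replicate 2 moved transport factors (3) and mRNA decay (5), replicate 3 mRNA decay (5) and replicate 4 transport factors (3). Median list changes kept their sign under both scalings except for ESCRT genes (-0.04, and 0.05 under each); small medians of the RNA polymerase I and III, integrin, laminin, keratin, peroxisome and tight junction lists changed sign in some subsets of arrays, genes or probe sets. The difference of polysome and cytosolic effects, with 0 genes called, gave 2 with the mean of probe sets and 722 with matched polysome minus cytosolic values and the replicate block, an alternative chosen after seeing the data; it gave 0 without replicate 1, 2, 3 or 4 and under the scalings, signal filter, variance trend, array weights and no replicate block. Signals near the bottom of the scale, as for CCN2 and ELMOD1, limit the precision of a fold.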
